A study of Mus musculus with 100 samples.

Results

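Secreted Wnt antagonists and Wnt target genes were followed in the fat of mice labelled as adipocyte knockouts of Gps2 and of their wild-type counterparts. The set comprised 10 genes of 32484 genes in the deposited tables, found by mapping Ensembl transcript rows to gene symbols. They were Sfrp1, Sfrp2, Sfrp4, Sfrp5, Frzb, Wif1 and Dkk3, which encode secreted proteins, and Axin2, Nkd1 and Lef1, which are Wnt targets. Messenger RNA was sequenced in 5 separately normalised tables, and knockout (KO) was set against wild type (WT) within each. The 10 genes were picked for how they differed between KO and WT in these same tables, so their KO and WT values are given as a description and carry no test of their own.

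The KO mice were labelled Adipoq-Cre and Gps2 floxed, and GPS2 is a subunit of a nuclear corepressor complex. Adipoq-Cre acts in adipocytes, so vessels, immune cells and progenitors in whole fat keep the floxed gene. The strain label read the same for WT samples, so the genotype was taken from the sample titles, and which alleles WT mice carried is not given. The CD table held intra-abdominal fat from mice of 19 weeks on normal chow (3 KO and 3 WT replicates). The HFD table held intra-abdominal fat at 11 weeks on a high-fat diet, with 4 W in its name (4 KO and 4 WT). The Epi table held whole intra-abdominal fat (3 KO and 3 WT), and the Adipo table intra-abdominal adipocytes (2 KO and 3 WT), both at 19 weeks and with a high-fat diet and 12 W in the table name. The BA table held inguinal fat at 8 weeks (4 KO and 4 WT), and the series' design ties its name to beta-adrenergic stimulation. The labels do not mark which of these mice were stimulated, and no other inguinal fat was used here. Nothing in the labels says whether replicates were single animals, so the spread given here is that between these samples.

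Wnt ligands bind Frizzled receptors with LRP5 or LRP6 and stabilise beta-catenin, which acts with TCF and LEF factors on target genes. Secreted frizzled-related proteins carry a Frizzled-like domain and WIF1 a domain of its own, and both kinds bind Wnt ligands outside the cell. In fat, canonical Wnt signalling is known as a brake on the formation of adipocytes, and SFRP5 is known as a protein that adipocytes secrete. AXIN2 and NKD1 are feedback inhibitors inside the cell, and Axin2 is widely used as a readout of the canonical pathway.

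The replicates held 29444602 to 63456837 recovered reads, and 97669 transcripts were listed over the 5 tables. Gps2 itself did not separate the genotypes. Its values overlapped in all 5 tables, and its log2 fold changes, KO minus WT, ran between 0.01 in HFD and 0.15 in BA. Since the labels do not say which part of Gps2 was floxed, a count over its whole transcript does not check the genotypes. In the CD table KO replicates 1 and 2 were nearly alike (their counts gave a chi-square of 1.88 per degree of freedom, where the other same-genotype CD pairs gave 32.1 to 174). Whether they come from 1 animal cannot be told from the labels, and every CD KO mean, SD and n below counts them as 2 unless stated. They carried epididymis transcripts in sums of 161850 and 149852 normalised reads, as did WT replicate 2 with 43875, against at most 52.0 in the other 3 replicates. CD WT replicate 2 also held 238496 normalised reads of smooth muscle and pericyte markers, against at most 18243 elsewhere in that table. In the Epi table KO replicates 2 and 3 held 80370 and 24252 normalised reads of epididymis transcripts, against at most 36.4 in the others. Adipocyte markers such as Adipoq and Plin1 were abundant in every replicate, with sums from 253634 in CD WT replicate 2 to 2864100 in Epi KO replicate 1. In bulk samples, fewer cells of a type and less RNA per cell cannot be told apart, and this holds for every level below.

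The results below turn most on Sfrp5 and Axin2, so the sequence around their start sites is shown, 250 bases before and 50 after the start, read 5′ to 3′ on the coding strand. It is the RefSeq sequence of GRCm38.p6, at chr19:42202203-42202502 on the minus strand for Sfrp5 and at chr11:108920099-108920398 on the plus strand for Axin2. Capitals mark the letters of the CCAAT motif on the opposite strand.
Sfrp5: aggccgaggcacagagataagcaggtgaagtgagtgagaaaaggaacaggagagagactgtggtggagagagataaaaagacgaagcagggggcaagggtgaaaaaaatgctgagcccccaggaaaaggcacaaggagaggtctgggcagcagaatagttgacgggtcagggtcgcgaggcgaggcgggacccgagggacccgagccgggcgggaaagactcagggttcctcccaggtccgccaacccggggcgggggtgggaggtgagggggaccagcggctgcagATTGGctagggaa
Axin2: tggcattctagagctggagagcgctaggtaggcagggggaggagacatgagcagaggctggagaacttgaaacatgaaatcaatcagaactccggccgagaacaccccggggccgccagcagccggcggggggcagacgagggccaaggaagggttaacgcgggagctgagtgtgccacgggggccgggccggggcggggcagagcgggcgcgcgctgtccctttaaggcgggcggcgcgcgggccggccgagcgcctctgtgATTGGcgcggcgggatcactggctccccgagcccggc

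Promoter windows were held for 7 of the 10 genes, namely Sfrp2, Sfrp5, Frzb, Wif1, Axin2, Nkd1 and Lef1. Sfrp1, Sfrp4 and Dkk3 are named only. The motifs CTTTGA, the core letters bound by TCF and LEF factors, and CCAAT were searched on both strands, and both were chosen after the sequences had been seen. CTTTGA was found in the windows of Frzb and of 1 Lef1 start, and 16.0% of all 32851 windows hold it. CCAAT was found in the windows of Sfrp5, Axin2 and Nkd1, and 37.4% of all windows hold it. Neither match is evidence of a bound site.

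Genes with a mean of at least 10 normalised reads in a table were tested by limma with Benjamini-Hochberg adjustment over all genes of that table, and a gene was called at an adjusted p below 0.05. Of the 7 members tested in HFD, 2 were called, Sfrp5 and Nkd1, both lower in KO, where 3.45% of all 14069 tested genes were called and 2.45% were called lower. Over all genes of HFD, 142 calls were higher in KO and 344 lower (229 and 341 after TMM scaling, an alternative library scaling). No member was called in CD (9 tested, 0% of all genes called), Epi (10 tested, 0%), Adipo (8 tested, 0.632%) or BA (7 tested, 0.0322%). The members were picked from these same comparisons, so nothing is read from the counts or from the member calls below. In CD, 1506 of 15617 genes had an unadjusted p under 0.05, and limma and edgeR called 0 but DESeq2 949 (6.33% of the genes it gave an adjusted p). In Epi, 1626 of 17685 genes had an unadjusted p under 0.05, and limma and edgeR called 0 but DESeq2 534 (3.46%). Among members, DESeq2 on the recovered reads also called Sfrp5 and Axin2 in Epi, Axin2 in BA, where it called 2.18% of all genes, and Sfrp1 and Sfrp2 in HFD, where it called 10.7%. In Adipo it called 12.7% of all genes and no member. Other alternatives called members in Adipo, namely Sfrp2 with the replicate block and without WT replicate 3 (2 of 14 alternatives) and Sfrp5 without KO replicate 2 (1 of 15).

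KO and WT replicates did not overlap for 1 of 9 tested members in CD (17.0% of all genes did not), 2 of 7 in HFD (14.0%), 3 of 10 in Epi (16.5%), 4 of 8 in Adipo (48.0%) and 1 of 7 in BA (5.48%). The share of all genes was highest in Adipo, which had 2 KO and 3 WT replicates, and the cause was not tested. Apart from Sfrp5, the members without overlap differed from table to table, being Nkd1 in HFD, Axin2 and Sfrp4 in Epi, Sfrp2, Wif1 and Nkd1 in Adipo and Axin2 in BA.

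Sfrp5, which encodes the adipocyte-secreted frizzled-related protein 5 (chr19:42197971-42202252, minus strand, 3 exons, 1 transcript in the tables), had lower values in every KO replicate than in any WT replicate in the CD, HFD, Epi and Adipo tables. In CD fat it had 10.004, 12.7 and 16.9 normalised reads in KO replicates, against 2988, 238 and 287 in WT replicates. In HFD fat it had 21.6, 163, 89.0 and 67.6 in KO replicates, against 4567, 2426, 408 and 2744 in WT replicates. The KO values of CD fat rested on 34 to 57 recovered reads a replicate, so they were counted and not listed at 0.

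In Epi fat Sfrp5 had 1233, 2872 and 3104 normalised reads in KO replicates, against 13359, 9643 and 14482 in WT replicates. Isolated adipocytes had 322 and 3946 in KO replicates, against 15474, 10251 and 14289 in WT replicates. The WT means were 88.5 times the KO mean in CD, 29.7 times in HFD, 5.20 times in Epi and 6.25 times in Adipo. The CD ratio rested on WT replicate 1 and was 19.8 without it. The Adipo ratio was 41.4 without KO replicate 2 and 3.38 without KO replicate 1. On the log2(value + 1) scale the fold change was -5.40 ± 0.98 for CD, -4.76 ± 0.77 for HFD, -2.47 ± 0.37 for Epi and -3.54 ± 0.98 for Adipo (SE). With CD KO replicates 1 and 2 counted as 1 the CD value was -5.31. The spread among KO replicates was widest in the Adipo cells. The HFD call was lost without KO replicate 4, with the fold change at -4.76 as before.

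Inguinal fat of the BA table looked different. Sfrp5 had 46.6, 68.1, 79.5 and 65.9 normalised reads in KO replicates, against 122, 113, 39.2 and 29.0 in WT replicates, and the groups overlapped with a log2 fold change of 0.02 ± 0.44 (SE). In BA the gene was low in both genotypes. Ranked per kilobase among the tested genes of its own replicate, it stood between the 17th and 45th percentiles in BA WT replicates, but between the 96th and 98th in Epi WT and between the 97th and 98th in Adipo WT replicates. In CD and HFD WT replicates it stood between the 61st and 96th and between the 70th and 97th percentiles. The tables were normalised separately and differ in depot, age and treatment, so these ranks are set side by side only.

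**Figure D1:**
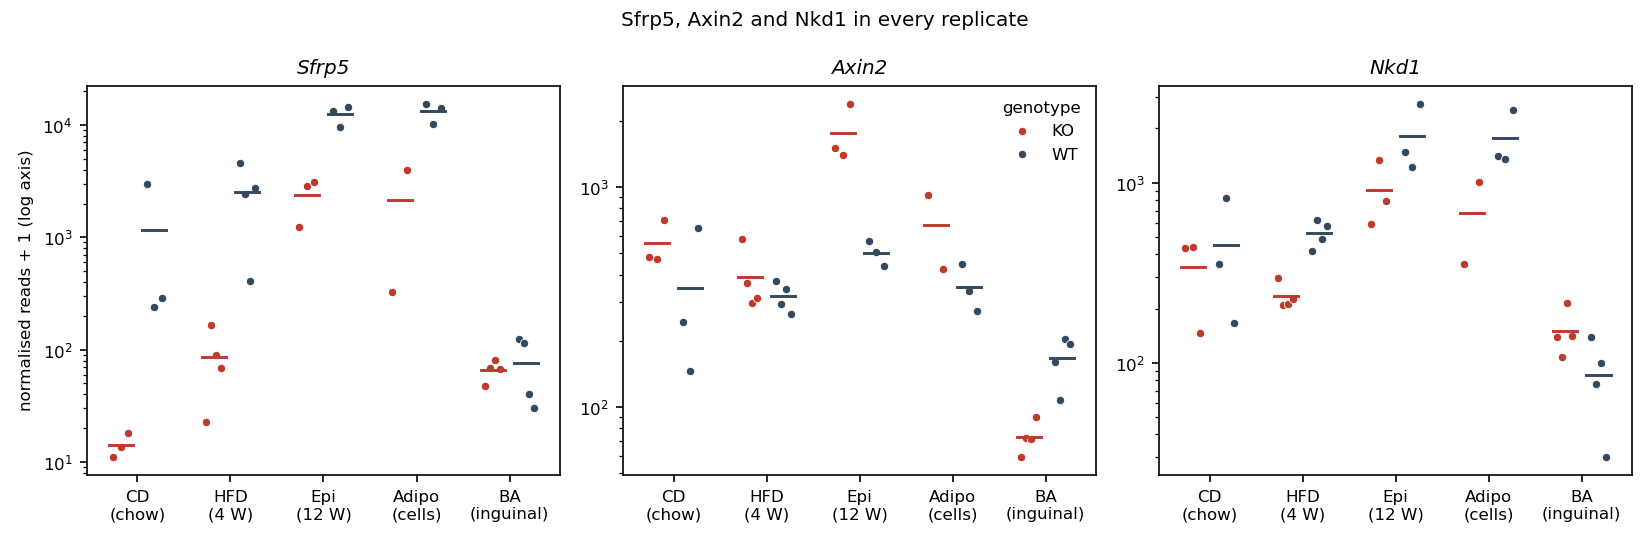
Normalised reads + 1 on a log axis for Sfrp5, Axin2 and Nkd1 in the 5 tables, with 1 point per replicate, KO (red) left of WT (blue), and a bar at each group mean. KO points of Sfrp5 lie below all WT points in 4 tables and overlap them in BA, while Axin2 KO points lie above all WT points in Epi and below all of them in BA.

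The summed adipocyte markers overlapped between KO and WT in CD, HFD and Epi fat, at 824509 to 966412 in HFD KO replicates against 653693 to 1005680 in HFD WT replicates. In HFD and in Epi, 2 of the 10 markers were higher in every KO replicate than in any WT replicate and 1 was lower. In CD 0 were higher and 0 lower. The adipocyte sums of the Adipo cells were 1957640 to 2059510 in KO replicates and 1565340 to 1946320 in WT replicates. Among the 10 markers of that sum, 2 were higher in both KO replicates than in any WT replicate and 1 was lower. The adipokine gene Cfd had 255844 to 530127 in KO against 32917 to 140979 in WT, and the leptin gene Lep 40289 to 46264 in KO against 103321 to 236350 in WT. The mean log2 level over the list overlapped, at 16.88 to 16.92 in KO and 16.47 to 16.95 in WT. Sfrp5 without the CD replicates that held epididymis transcripts, KO 1, KO 2 and WT 2, had a log2 fold change of -5.69, and without Epi KO 2 and KO 3 it was -3.32. Each of these values sets 1 remaining KO replicate against the WT replicates, so the KO side has no spread of its own.

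Sfrp1 and Sfrp2 encode further secreted frizzled-related proteins. In HFD fat Sfrp1 (chr8:23411502-23449632) had 487, 189, 422 and 481 normalised reads in KO replicates, against 303, 140, 139 and 136 in WT replicates. Sfrp2 (chr3:83766321-83774316) had 711, 227, 219 and 416 in HFD KO replicates, against 215, 139, 110 and 228 in HFD WT replicates. The KO means were the higher for both genes, with log2 fold changes of 1.13 ± 0.35 and 1.07 ± 0.38 (SE), but the groups overlapped, KO replicate 2 lying inside the WT range for both and KO replicate 3 for Sfrp2. Mesothelial marker sums were 8811, 2126, 4064 and 4949 in HFD KO replicates, against 4994, 1800, 1669 and 5260 in HFD WT replicates. Progenitor and fibroblast sums were 27782 to 58050 in HFD KO replicates, against 28200 to 48865 in HFD WT replicates, and the part of either cell type in the Sfrp1 and Sfrp2 values was not tested.

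In the Adipo cells Sfrp2 had 73.6 and 72.7 normalised reads in KO replicates, against 10.1, 10.4 and 35.8 in WT replicates, and the groups did not overlap. Sfrp1 had 117 and 54.1 in Adipo KO replicates, against 37.1, 26.1 and 79.8 in Adipo WT replicates. All 10 mesothelial markers and all 6 endothelial markers were also higher in both Adipo KO replicates than in any WT replicate. The mesothelial sums were 1704 and 1110 in KO against 139 to 706 in WT, and the endothelial sums 12295 to 27750 in KO against 1643 to 3153 in WT. Progenitor and fibroblast sums were also higher, at 31416 and 27950 in KO against 16641 to 24015 in WT, with 5 of the 10 genes higher in both KO replicates and 1 lower. Epididymis markers stayed at sums of 38.1 or less in KO and 19.1 or less in WT cells. The part of these other cell types in the higher Sfrp2 values was not tested. Of the Sfrp2 transcript, 17.3% overlaps the antisense gene Gm26771, and no source says whether strand was used in counting.

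Sfrp1 and Sfrp2 did not separate the genotypes in the remaining tables. Sfrp1 averaged 260 ± 97.7 normalised reads in CD KO fat and 313 ± 50.9 in CD WT fat (SD, n = 3 each). In Epi fat it had 1132, 3244 and 570 in KO replicates, against 720, 1305 and 799 in WT replicates, the highest value belonging to KO replicate 2. That replicate also had the highest mesothelial sum of the table, 20134, and an epithelial marker sum of 7334 against at most 684 in the others. Sfrp2 averaged 596 ± 110 in Epi KO fat and 775 ± 274 in Epi WT fat (SD, n = 3 each), and 117 ± 79.4 in CD KO fat and 145 ± 125 in CD WT fat (SD, n = 3 each). In BA fat Sfrp1 ran from 22.8 to 42.1 in KO replicates and from 25.2 to 71.7 in WT replicates, and Sfrp2 from 21.1 to 95.5 in KO replicates and from 29.4 to 175 in WT replicates.

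Sfrp4, a further member of the secreted frizzled-related family (chr13:19623104-19632994), separated the genotypes in Epi fat. It had 216, 349 and 350 normalised reads in Epi KO replicates, against 379, 725 and 657 in Epi WT replicates, with a log2 fold change of -0.92 ± 0.32 (SE). The gap was narrow, since the lowest WT value lay close above the highest KO value. In the other tables the groups overlapped, at 75.5 to 111 in HFD KO against 21.4 to 150 in HFD WT replicates and 17.4 to 28.5 in CD KO against 20.8 to 38.4 in CD WT replicates. The Adipo cells had 46.0 and 21.3 in KO against 24.7, 28.2 and 48.1 in WT replicates, and BA fat 11.4 to 42.6 in KO against 11.1 to 48.2 in WT replicates.

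Frzb, which encodes the frizzled-related protein also known as SFRP3, was near the limit of detection. Its mean was below the testing minimum of 10 normalised reads in every table but Epi, where it had 6.63, 6.58 and 9.44 in KO replicates against 27.6, 41.4 and 4.40 in WT replicates. The WT values of Epi fat thus lay on both sides of the KO values. The Adipo cells stood at 1.02 and 0 in KO replicates and at 0, 1.04 and 0 in WT replicates.

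Wif1, which encodes Wnt inhibitory factor 1 (chr10:121033960-121100650), was also low, and its difference rested on few replicates. In CD fat it was at 0 in all 3 KO replicates, against 1.12, 591 and 0 in WT replicates. The 591 belonged to WT replicate 2, the one with the smooth muscle and epididymis transcripts, and without it the gene fell under the testing minimum in CD. In the Adipo cells Wif1 had 0 and 16.0 normalised reads in KO replicates, against 25.8, 17.7 and 109 in WT replicates, so the groups did not overlap but the second KO replicate lay close to the lowest WT replicate.

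In Epi fat Wif1 had 0, 13.2 and 4.29 in KO replicates, against 6.14, 8.28 and 105 in WT replicates, and the groups overlapped. KO replicates were also below all WT replicates in HFD and BA, but at levels of at most 0.27 normalised reads in HFD KO against 0.83 to 5.56 in HFD WT, and at most 0.55 in BA KO against 1.11 to 3.49 in BA WT, under the testing minimum. All 3 annotated Wif1 transcripts were lower in KO in HFD, Adipo and BA, and since they share exons they are not independent counts.

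Dkk3, which encodes a secreted member of the Dickkopf family whose action on Wnt signalling depends on the cell (chr7:112116017-112159057), overlapped between genotypes in all 5 tables. It had 196, 987 and 279 normalised reads in Epi KO replicates, against 150, 282 and 273 in Epi WT replicates, the high value again belonging to KO replicate 2. In HFD fat it had 207, 43.9, 72.3 and 105 in KO replicates, against 158, 43.6, 25.6 and 83.4 in WT replicates, the highest in each genotype being replicate 1. Isolated adipocytes had 36.8 and 26.6 in KO replicates, against 6.74, 5.22 and 49.1 in WT replicates. CD KO replicates held 72.7, 75.0 and 11.2, against 74.5, 110 and 20.2 in CD WT replicates, and BA replicates 18.0 to 22.3 in KO against 15.4 to 18.7 in WT.

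**Figure D2:**
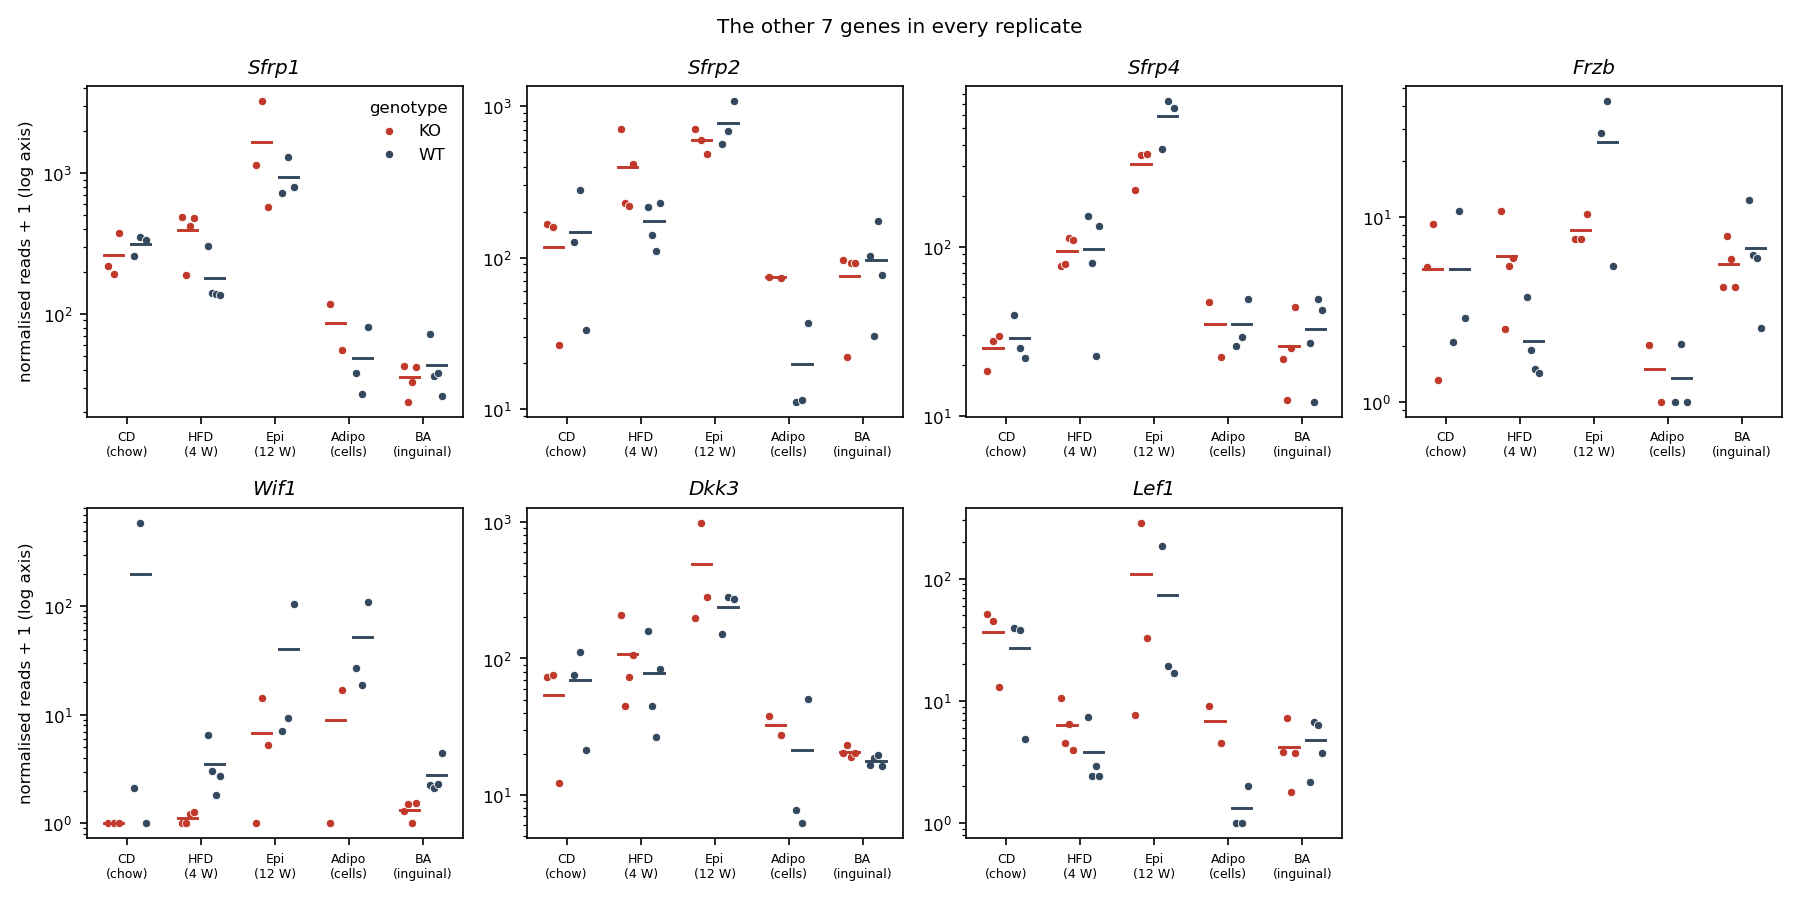
Normalised reads + 1 on a log axis for Sfrp1, Sfrp2, Sfrp4, Frzb, Wif1, Dkk3 and Lef1, with 1 point per replicate, KO (red) left of WT (blue), and a bar at each group mean. Sfrp2 KO points lie above all WT points in Adipo, Sfrp4 KO points lie below all WT points in Epi, and Epi KO replicate 2 is the highest KO point for Sfrp1, Dkk3 and Lef1.

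Axin2, the scaffold of the beta-catenin destruction complex that canonical Wnt signalling induces (chr11:108920349-108950783, plus strand, 11 exons), had higher values in KO than in WT in whole intra-abdominal fat of the Epi table and lower values in KO in inguinal fat of the BA table. In Epi fat it had 1501, 1394 and 2393 normalised reads in KO replicates, against 566, 504 and 439 in WT replicates. In BA fat it had 58.1, 71.3, 70.6 and 89.4 in KO replicates, against 160, 107, 203 and 193 in WT replicates. The groups did not overlap in either table, and the directions were opposite, at 1.77 ± 0.23 in Epi and -1.16 ± 0.21 in BA (log2 fold change, SE).

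In CD fat Axin2 had 483, 468 and 709 normalised reads in KO replicates, against 242, 145 and 650 in WT replicates. Isolated adipocytes had 916 and 422 in KO replicates, against 446, 337 and 272 in WT replicates. KO values were higher on average in both, at 0.94 ± 0.55 and 0.85 ± 0.38 on the log2 scale (SE), but 1 WT replicate lay inside the KO range in each. HFD fat had 578, 365, 297 and 312 in KO replicates, against 373, 294, 342 and 265 in WT replicates, a difference of 0.24 ± 0.21.

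All 7 annotated Axin2 transcripts had KO values above every WT value in Epi, and all 7 had KO values below every WT value in BA. They share exons and reads, so they are not independent counts. The antisense gene Gm11670 overlaps 4.86% of the transcript used. Without Epi KO 2 and KO 3, the replicates that held epididymis transcripts, the Axin2 log2 fold change in Epi was 1.58. This sets 1 KO replicate, which held 29.2 normalised reads of epididymis markers, against 3 WT replicates. The smooth muscle and pericyte markers of Epi fat had a mean log2 level of 11.66 to 11.77 in KO against 11.19 to 11.46 in WT. Of their 7 genes, Myh11, Cnn1 and Tagln were higher in every KO replicate than in any WT replicate and Cspg4 was lower, while the sums overlapped (32911 to 39612 in KO, 32776 to 42322 in WT). The part of smooth muscle in the Axin2 values was not tested. In BA the adipocyte marker sums were higher in KO, at 491201 to 734452 against 419613 to 484852 in WT replicates. Of the 10 markers, 2 were higher in every KO replicate than in any WT replicate and 0 were lower. The part of adipocytes in the BA Axin2 values was not tested.

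The order of replicates by Sfrp5 and by Axin2 was not the same from one KO group to the next. Of the 2 Adipo KO replicates, the first had the lower Sfrp5 (322 against 3946 normalised reads), the lower Nkd1 (351 against 1006) and the higher Axin2 (916 against 422), beside the higher endothelial sum (27750 against 12295). HFD KO replicate 1 likewise had the lowest Sfrp5 and the highest Axin2 of its group (21.6 and 578). In other groups 1 end of the order was shared. CD KO replicate 3 was highest for both genes (16.9 and 709), Epi KO replicate 3 highest for both (3104 and 2393) and BA KO replicate 1 lowest for both (46.6 and 58.1). The other end of the order fell to different replicates in each of these groups. After removing each group's mean, the Pearson r of Sfrp5 with Axin2 over all 33 replicates was -0.32.

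Nkd1, which encodes the naked cuticle homolog that binds Dishevelled and dampens Wnt signalling (chr8:88521354-88594884, plus strand, 10 exons), fell in HFD fat. It had 294, 207, 212 and 224 normalised reads in HFD KO replicates, against 414, 619, 487 and 576 in HFD WT replicates, and the log2 fold change was -1.16 ± 0.15 (SE). The KO replicates lay close together and all below WT. Isolated adipocytes had 351 and 1006 in KO replicates, against 1408, 1360 and 2545 in WT replicates, again with no overlap.

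In Epi fat Nkd1 had 591, 1338 and 788 normalised reads in KO replicates, against 1472, 1223 and 2745 in WT replicates, so that KO replicate 2 lay above the lowest WT replicate. In CD fat it had 431, 438 and 146 in KO replicates, against 352, 826 and 166 in WT replicates, and the highest value belonged to WT replicate 2 with its smooth muscle transcripts. On the log2 scale KO minus WT was -0.99 ± 0.39 in Epi, -1.51 ± 0.50 in Adipo and -0.27 ± 0.70 in CD (SE). In BA fat the KO values were the higher on average, at 138, 106, 215 and 139 against 137, 75.5, 98.5 and 28.9 in WT replicates (0.96 ± 0.42), and the groups overlapped. Axin2 and Nkd1, both known targets of the canonical pathway, had log2 fold changes of opposite sign in all 5 tables, and that of Nkd1 in CD changed sign with the replicate left out (-0.83 to 0.32). Both annotated Nkd1 transcripts were lower in every KO replicate than in any WT replicate in HFD and in Adipo.

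Lef1, which encodes a nuclear partner of beta-catenin and is itself a Wnt target (chr3:131110471-131224356), was low and uneven. In Epi fat it had 6.63, 286 and 31.7 normalised reads in KO replicates, against 184, 18.2 and 15.9 in WT replicates. CD fat had 50.6, 44.1 and 11.98 in KO replicates, against 38.3, 36.9 and 3.86 in WT replicates. In both genotypes of CD the third replicate was the lowest. HFD and BA fat stayed at or below 9.53 in KO and 6.33 in WT replicates, under the testing minimum. In the Adipo cells Lef1 had 8.18 and 3.55 in KO replicates against 0, 0 and 1.02 in WT replicates, also under it, beside the higher endothelial and mesothelial markers of those KO cells. The antisense gene Gm43352 overlaps 34.7% of the Lef1 transcript.

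**Figure D3:**
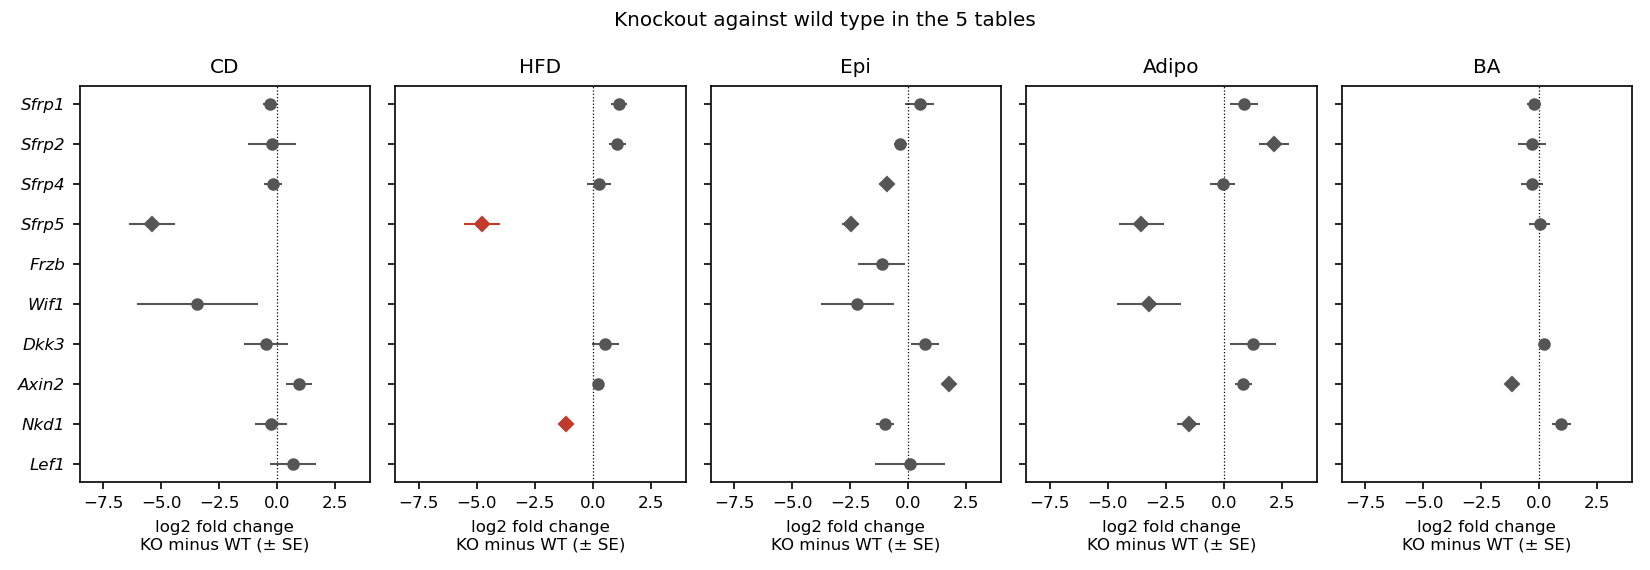
Log2 fold change of each gene, KO minus WT, on the log2(value + 1) scale with its SE, in the 5 tables. Diamonds mark genes whose KO and WT replicates do not overlap, circles those that overlap, red the 2 genes called by limma (Sfrp5 and Nkd1 in HFD), and genes under the testing minimum have no point. The genes were picked from these same comparisons, so a call is a description.

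The order of the members within a group differed between tables. Per kilobase of transcript, Sfrp5 led the 10 genes in Epi KO (mean 1265 normalised reads per kilobase) and Adipo KO (1123, its range overlapping that of Nkd1 at 223), but it was sixth in HFD KO and eighth in CD KO. In WT it led in all 4 of these tables, with 6576 per kilobase in Epi WT and 7020 in Adipo WT. Nkd1 came second in those WT groups, at 597 per kilobase in Epi WT and 584 in Adipo WT, and its range overlapped that of Sfrp5 in CD WT but not in HFD, Epi or Adipo WT. Axin2 ranked first in CD KO and second in HFD KO and Epi KO. In BA the leading genes were Nkd1, Sfrp2 and Sfrp5 in KO and Sfrp2, Sfrp5 and Axin2 in WT. Their ranges overlapped from one to the next, and in KO the range of Sfrp5 lay above that of the fourth gene, Axin2.

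**Figure D4:**
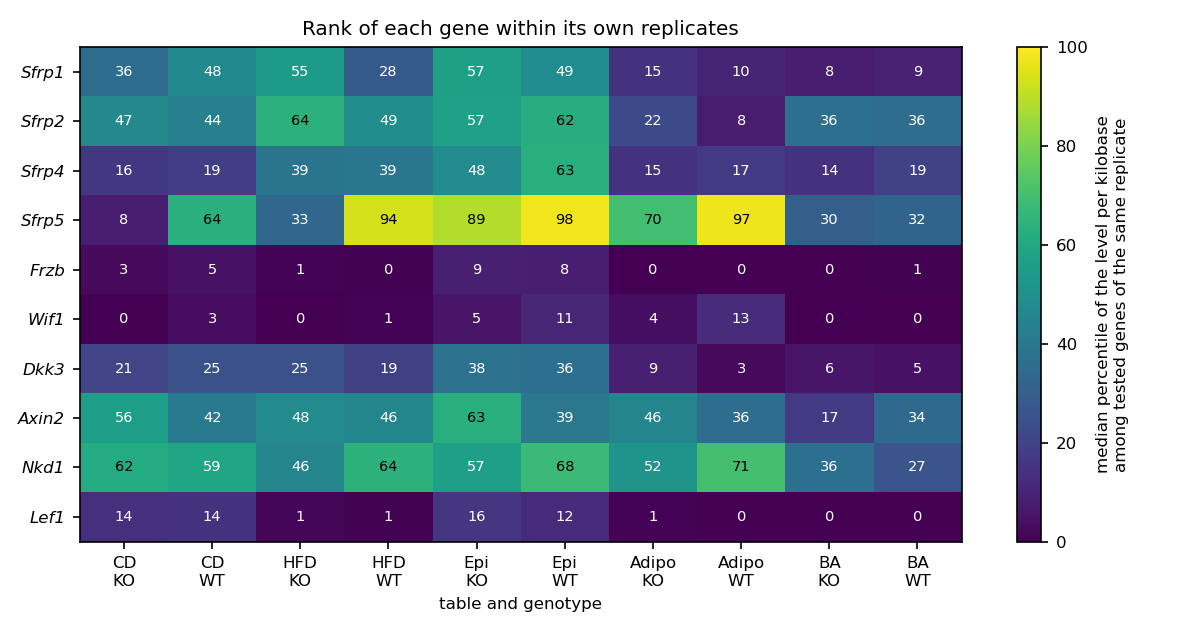
Median percentile of each gene's level per kilobase among the tested genes of the same replicate, by table and genotype, KO left of WT. Sfrp5 reaches the 90s in WT groups of HFD, Epi and Adipo and is near 30 in both BA groups, while Frzb, Wif1 and Lef1 stay at 16 or below in every group.

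The rest of the pathway was examined in 8 lists of ligands, secretion factors, receptors, other antagonists, R-spondins with their receptors and ligases, the destruction complex, TCF factors and further target genes. In HFD fat limma called 3 of the 62 pathway genes tested (4.84%, against 3.45% of all genes), the ligand Wnt11 and the target genes Ccnd1 and Myc. In Adipo it called 1 of 54 (1.85%, against 0.632% of all genes), and none in CD, Epi or BA. Wnt11, a ligand known mainly for signalling apart from beta-catenin, had 66.6, 68.3, 74.5 and 65.6 normalised reads in HFD KO replicates, against 141, 139, 109 and 212 in HFD WT replicates. It fell by 1.08 ± 0.19 on the log2 scale (SE, limma adjusted p = 0.0181, lower in 4 of 4 KO replicates), and the groups did not overlap. The other 7 tested ligands had higher values in KO and were not called, with a median log2 fold change over the 8 of 0.35, against -0.09 over all genes. In Epi and BA most ligands had lower values in KO, and none was called. These were 10 of 13 in Epi (median -0.17, against -0.03 over all genes) and 6 of 7 in BA (-0.20, against 0.01). In CD the ligands were 4 higher and 4 lower, and in Adipo 3 higher and 3 lower.

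Ccnd1, which encodes cyclin D1, a cell-cycle regulator, had 533, 325, 405 and 402 normalised reads in HFD KO replicates, against 626, 750, 664 and 642 in HFD WT replicates (log2 fold change -0.70 ± 0.14, SE, limma adjusted p = 0.0307). Myc, which encodes a growth-promoting transcription factor, had 276, 229, 252 and 261 in HFD KO replicates, against 146, 99.1, 105 and 103 in HFD WT replicates (1.17 ± 0.14, limma adjusted p = 0.00407). These genes, both commonly listed as Wnt targets, moved in opposite directions in the same HFD samples, and KO and WT overlapped for neither there. In CD, Epi, Adipo and BA the Ccnd1 values of KO and WT overlapped. The Adipo cells had 581 and 183 normalised reads of Ccnd1 in KO replicates, against 110, 70.9 and 240 in WT replicates. The Ccnd1 call was lost in 11 of 19 alternatives, TMM scaling and 6 of the 8 fits without a single replicate among them. The Wnt11 call was lost in 4 of 19, namely without KO replicate 1, 3 or 4 and without KO 1 and WT 1 together. The median over the 8 tested genes of the target list was 0.33 in HFD, against -0.09 over all genes.

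Myc also rose in the Adipo cells, to 5105 and 5189 normalised reads in KO replicates against 462, 1033 and 590 in WT replicates (log2 fold change 2.97 ± 0.33, SE, limma adjusted p = 0.0368), the only pathway gene called there. The call was lost without KO replicate 1, KO replicate 2 or WT replicate 1, and without variance moderation by trend, while the fold change stayed between 2.72 and 3.30. It was not called in whole Epi fat, where Myc averaged 560 ± 152 in KO and 489 ± 2.61 in WT (SD, n = 3 each), or in BA fat, where it averaged 68.2 ± 10.2 in KO and 69.8 ± 8.79 in WT (SD, n = 4 each). Nor was it called in CD fat, where Myc had 190, 201 and 362 in KO replicates, against 322, 183 and 421 in WT replicates. Whether Myc differs between those tables and Adipo was not tested. The endothelial, mesothelial and progenitor marker sums given for Sfrp2 were higher in the same Adipo KO replicates, and their part in the Myc values was not tested.

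Wnt11 had lower KO values outside HFD too, without a call. It had 129, 227 and 232 normalised reads in Epi KO replicates, against 353, 307 and 291 in Epi WT replicates, and 71.6 and 132 in Adipo KO replicates, against 255, 216 and 207 in Adipo WT replicates. In CD fat the values were 53.6, 56.5 and 51.8 in KO, against 146, 25.3 and 51.2 in WT, and overlapped. BA fat held 14.6 to 38.0 in KO and 27.5 to 46.5 in WT.

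Among receptors, Fzd6, a Frizzled linked to signalling apart from beta-catenin, had the largest difference of its list in CD, HFD, Epi and Adipo, and none of these passed the threshold. In the Adipo cells it had 257 and 127 normalised reads in KO replicates, against 25.8, 10.4 and 23.5 in WT replicates, and in CD fat 513, 509 and 281 in KO against 170, 194 and 228 in WT. The mesothelial and endothelial markers of Adipo KO cells, and the epididymis transcripts of CD KO replicates 1 and 2, moved beside these values, and their part was not tested. Rnf43, a ligase that removes Frizzled from the membrane and is induced by Wnt signalling, reached 169 and 176 in CD KO replicates 1 and 2, 194 in CD WT replicate 2 and 720 in Epi KO replicate 2, and was at most 22.3 in the other CD and Epi replicates. HFD WT replicate 1 had 72.4, against at most 4.76 in the other HFD replicates. The 4 CD and Epi replicates with high Rnf43 are all among those with epididymis transcripts, but HFD WT replicate 1 held 16.0 normalised reads of these. All 5 had the highest epithelial marker sums of their tables, at 4896, 4976, 3995, 7334 and 626, and the part of epididymis or epithelium in the Rnf43 values was not tested.

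The destruction complex and beta-catenin list, 14 genes, was flat by comparison, with none called in any table and medians between -0.05 and 0.02 in all 5. The medians over all genes ran from -0.09 in HFD to 0.11 in CD. The TCF list had 11 of 12 tested genes with higher values in Epi KO (median 0.23, against -0.03 over all genes) and 10 of 11 in Adipo KO (0.35, against -0.04), none of them called. In the other tables it had 9 of 12 higher in CD (median 0.16, against 0.11 over all genes), 6 of 12 in HFD (-0.03, against -0.09) and 8 of 12 in BA (0.09, against 0.01). Its largest differences in Adipo were Tcf7l1 (829 and 678 normalised reads in KO against 434, 329 and 228 in WT) and Pygo1 (395 and 309 in KO against 254, 228 and 98.2 in WT), which encode a TCF factor and a beta-catenin cofactor. They stood beside the higher endothelial, mesothelial and progenitor markers of the Adipo KO cells, whose part was not tested. Of the further target genes, 10 of 11 tested had higher values in Epi KO (median 0.39, against -0.03 over all genes), and none was called. The largest difference among them was that of Rnf43, at 720 in Epi KO replicate 2 and at most 22.3 in the other Epi replicates. Genes with higher KO values numbered 4 of 9 in CD (median -0.05, against 0.11 over all genes) and 6 of 8 in HFD (0.33, against -0.09). They numbered 4 of 4 in Adipo (0.86, against -0.04) and 2 of 5 in BA (-0.04, against 0.01).

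**Figure D5:**
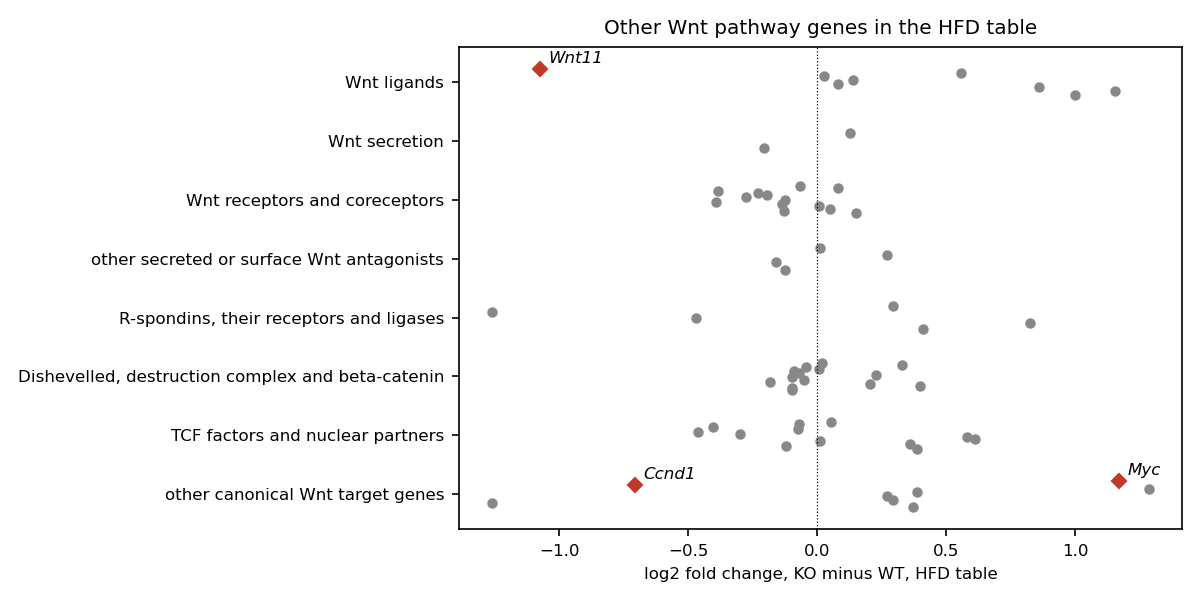
Log2 fold change of the other Wnt pathway genes in the HFD table, KO minus WT, by list, with 1 point per tested gene (Rnf43 and Znrf3 and some others stand in 2 lists). Red diamonds mark the 3 genes called by limma, with Wnt11 and Ccnd1 below 0 and Myc above it.

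Genes that varied most like Sfrp5 among replicates of 1 group were sought over all 33 replicates, after removing each group's mean, among 11860 genes expressed in every table. Srpx2 was the most alike (Pearson r = 0.84), followed by Fam124a, Adap2, C1qtnf1 and Prelp (0.77 to 0.78). Srpx2 had 222, 607, 448 and 463 normalised reads in HFD KO replicates, against 726, 824, 461 and 1082 in HFD WT replicates, so its lowest replicate is KO 1, as for Sfrp5. The 2 genes shared their lowest KO replicate in Epi and Adipo too, but not in CD or BA. In CD KO replicates Srpx2 had 155, 132 and 120, the reverse of the Sfrp5 order. For Axin2 the most alike was Amotl2 (0.81), followed by Tacc1, Emp1, Snx33 and Atp10d (0.76 to 0.80). These coefficients rank genes on shared libraries and are given as a description.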

How the data were processed

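The authors deposited a signal for each Ensembl transcript: read counts divided by 1 size factor per library, here called normalised reads. Build GRCm38.p4 and the tools STAR 2.4.0k, HTSeq 0.5.3, DESeq 1.8.3, SAMtools and bcl2fastq 2.17 are listed, without roles, in the submitters' processing notes. Of 100 samples 99 were used; 1 column matched no sample and the third Adipo sample labelled knockout was not analysed here. In CD, HFD and BA the 4 libraries of a replicate were averaged. Those with recovered reads differed little beyond counting noise (chi-square per degree of freedom 1.03 to 1.12). HFD KO replicate 2, HFD WT replicate 4 and BA WT replicate 4 each held 1 library without recovered reads, which had no such check. The transcript of highest mean stood for its gene. Whole reads (tolerance 0.01) were recovered in 96 libraries, where 100% of values came out whole. The 3 libraries not taken also came out whole at 100%, so this share is not what set them apart. Genes with a mean of at least 10 were tested by limma 3.58.1 (trend, robust) on log2(value + 1). edgeR 4.0.16 and DESeq2 1.42.0 on recovered reads, other filters, pseudocounts and scalings, a replicate block and leaving out replicates were alternatives. The model fits were also run on simulated data, and the outcome is not reported here. The members, pathway lists and marker lists were chosen with earlier results of these data known. Pathway genes named are those called in any table and, for lists with none, up to 2 of the largest differences. The Dixon test for a single distant value was run on 40 sets, each the values of 1 gene in the 4 replicates of an HFD or BA genotype.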

Additional observations from a re-analysis of the deposited data

Results flagged for a closer look

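The values of 1 gene in the 4 replicates of an HFD or BA genotype were examined as a set, 40 sets in all. In 3 sets a single replicate lay far from the others, where chance alone gives about 1 in 20 for independent sets. The sets share the same replicates and are not independent, so nothing is read from that count. HFD WT replicate 1 had 303 normalised reads of Sfrp1, against 136 to 140 in the other WT replicates. The same replicate had 146 normalised reads of Myc, against 99.1 to 105 in the others. Its mesothelial marker sum was 4994, against 5260 in WT replicate 4, and its mean log2 mesothelial level 8.54 against 8.31. Among HFD WT replicates, replicate 1 had the highest progenitor and fibroblast (48865), smooth muscle and pericyte (12023), macrophage (5001) and epithelial sums (626). Its endothelial sum was the lowest of them, at 10737. The part of these cell types in the Sfrp1 and Myc values was not tested. BA KO replicate 2 had 21.1 normalised reads of Sfrp2, against 90.5 to 95.5 in the other KO replicates.

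Axin2 was higher in every KO replicate than in any WT replicate in Epi fat (log2 fold change 1.77) and lower in every KO replicate than in any WT replicate in BA fat (-1.16). The difference between the 2 tables was not tested, and depot, age, diet and stimulation cannot be told apart between them.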

How the results depend on the processing

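Of 41 member results in the 5 tables, 26 kept their sign in all alternatives run, and 36 of 697 alternative values had the other sign, none of a called member. Over leaving out each replicate in turn, the log2 fold change of Sfrp5 ran from -6.06 to -4.23 in CD, -5.50 to -4.22 in HFD, -2.71 to -2.04 in Epi, -5.35 to -1.73 in Adipo and -0.35 to 0.33 in BA, and that of Axin2 from 1.53 to 1.92 in Epi and -1.35 to -1.05 in BA. Nkd1 in HFD kept its call in all 19 alternatives, between -1.38 and -1.07. Sfrp5 in HFD kept it in 17 of 19 and lost it without KO replicate 4 and with the replicate block, at -4.76 in both. The members were picked for this contrast and the alternatives refit the same replicates, so a kept call is no support for a difference.

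Counts of called genes moved more. In CD the 0 became 949 with DESeq2, 1 without trend or robust moderation and 0 to 648 over leaving out each replicate. The 648 came without KO replicate 3, which leaves KO replicates 1 and 2, the nearly alike pair. Whether these come from 1 animal cannot be told, so the KO spread of that fit may not be one between animals. In HFD the 486 became 1474 with DESeq2 and 126 to 1178 over leaving out each replicate, lowest without KO 4 and highest without WT 1. In Epi the 0 became 534 with DESeq2 and 0 to 22 over leaving out each replicate. In Adipo the 90 became 0 without trend or robust moderation, 391 with no filter, 1805 with DESeq2 and 3 to 718 over leaving out each replicate. In BA the 4 became 2 without trend or robust moderation, 2 with no filter, 7 with transcripts summed, 1 with edgeR, 270 with DESeq2 and 0 to 9 over leaving out each replicate. The cause was not tested. Same-numbered KO and WT replicates correlated between -0.52 and 0.53, and differently numbered ones between -0.53 and 0.56. Deviations from the mean of so few replicates constrain each other, so this cannot show whether the replicate numbers pair the samples. The replicate block changed the counts to 272 in HFD and 1411 in Adipo. The sets without the doubted CD, HFD or Epi replicates together were added after seeing the data and called 0, 448 and 0 genes, and counting CD KO 1 and KO 2 as 1 replicate called 0.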
